A study of Sus scrofa with 22 samples.

Results

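The genes described here encode the collagens, the laminins and a small group of other proteins of basement membranes and interstitial matrix, measured by RNA sequencing in jejunal mucosa of Ossabaw pigs. They were taken from the count files by name: symbols that begin with COL, LAMA, LAMB or LAMC followed by a digit, together with NID1, NID2, HSPG2, FN1, FBN1, ELN, LUM, DCN, SPARC and POSTN. Of the 24358 genes in the files, 55 carried such a name, and 48 of these had at least 10 unique exon reads in at least 7 of the 22 libraries. The rule used names and read numbers only and no difference between groups, but it was set with earlier results of these data known. Among the 48, COL4A3BP carries a collagen name but encodes a ceramide transfer protein, which leaves 47 matrix genes.

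A basement membrane is a thin sheet of laminin and collagen IV networks, joined by nidogens and perlecan, on which epithelium, smooth muscle, endothelium and nerve rest. The interstitial matrix beneath it is built mainly of fibrillar collagens I, III and V, decorated by small proteoglycans and by fibronectin and elastic fibres, and is made largely by fibroblasts and smooth muscle cells. In the small intestine the epithelium is renewed continuously on its basement membrane. Hemidesmosomes hold epithelial cells to a basement membrane, and in some epithelia they contain collagen XVII and a laminin that includes the LAMA3 and LAMB3 chains.

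All pigs were fed for 6 months, with 38% of energy as fat in each diet. The group WD_S (n = 7, diet label Atherogenic + Statin) ate a Western pattern, in which refined carbohydrate, cholesterol and butter fat were high, and was given atorvastatin, a cholesterol-lowering HMG-CoA reductase inhibitor, at 20 mg per day for 3 months and 40 mg per day for the following 3 months. The group HHD (n = 7, Heart Healthy) ate a pattern based on fruit and vegetables, fibre, whole grain and oils low in saturated fat, with fish oil capsules of 1000 mg and no drug. The group HHD_S (n = 8, Heart Healthy + Statin) received that pattern and the capsules together with atorvastatin at the doses of WD_S. WD_S and HHD_S differ in dietary pattern with the drug given to both, HHD_S and HHD differ in the drug, and WD_S and HHD differ in both at once. A Western pattern without drug is not analysed here. The pigs came from 32 randomized animals, 16 boars and 16 gilts, and the sex and age of each pig are not in the labels.

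Libraries held 15316437 to 31564022 counted reads, and the 48 genes took between 0.211% of them in HHD 7 and 0.724% in HHD 2. The libraries carry 2 pool numbers in the names of the deposited files, pool 3 (13 libraries) and pool 4 (9 libraries), and both occur in every group. Markers of the labelled tissue were high: 11 enterocyte genes summed to 38479 to 69989 CPM (counts scaled to a common library size) in WD_S, 23102 to 64959 in HHD_S and 33429 to 60720 in HHD. Smooth muscle genes were also present in every library, their 11 markers summing to 528 to 1296, 408 to 1590 and 441 to 1336 CPM in the same order. The 5 libraries WD_S 7, HHD 6, HHD 7, HHD_S 7 and HHD_S 8 come from pigs whose numbers follow the widest gap in the numbering. Their median lay below that of the other 17 libraries for 45 of the 48 genes. The share over all genes tested was not computed. The 48 genes vary together from pig to pig, so this count does not hold 45 separate observations. Because mucosa was sequenced without separating its cells, fewer cells of a type and less RNA per cell cannot be told apart.

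The 7 named rows below the read minimum had 10 reads in 0 libraries. They were the cartilage collagens COL2A1, COL10A1 and COL11A1, the minor collagens COL20A1 and COL22A1, and the laminin chains LAMA1 and LAMB4, with at most 9 reads in any library. Just inside the minimum were LAMC3, with 10 reads in 9 libraries, COL28A1 in 20 and COL26A1 in 21, and the other 45 had at least 10 reads in every library. COL4A1 and COL6A2 had no row under those names. A further 5 collagen rows, COL4A3, COL4A6, COL6A1, COL21A1 and COL24A1, are named only through a separate table of gene names and were not counted among the 48. Levels below are TMM-scaled CPM, which are not divided by transcript length and so do not rank genes against each other.

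No collagen, laminin or other basement membrane gene among the 48 passed the test between diets or between pigs with and without the statin. EdgeR's quasi-likelihood test with Benjamini-Hochberg adjustment over 13626 genes called 0 of 48 at an adjusted p under 0.05 in each contrast. Of all genes tested, 0% were called in WD_S minus HHD_S, 0% in HHD_S minus HHD and 0.00734% in WD_S minus HHD. At an unadjusted p under 0.05 the genes described numbered 0, 0 and 1, which is 0%, 0% and 2.08%, against 2.92%, 1.81% and 3.41% of all genes tested. For 0 of 48 did the groups' ranges separate, against 0.0147% of all genes in the higher direction in WD_S minus HHD_S and in HHD_S minus HHD, and 0.0294% higher and 0.0367% lower in WD_S minus HHD. DESeq2 and limma also called 0 of 48 in each contrast.

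In both contrasts that involve HHD_S, most of the 48 fold changes lay on the same side of 0. In WD_S minus HHD_S, 40 of 48 (83.3%) were positive against 47.1% of all genes tested and 8 were negative against 52.9%, and their median log2 fold change was 0.16 against −0.01. In HHD_S minus HHD, 13 of 48 (27.1%) were positive against 52.6% and 35 were negative against 47.4%, with a median of −0.16 against 0.01. In WD_S minus HHD, 26 of 48 were positive against 49% of all genes and 22 were negative against 51%, with a median of 0.01 against −0.00. The genes vary together from pig to pig, so the 48 fold changes are not separate observations, and no test is attached to these counts. Without WD_S 1 the median for WD_S minus HHD_S was 0.05 with 28 positive, and without HHD_S 4 the median for HHD_S minus HHD was −0.05. The count of positive genes for HHD_S minus HHD ran from 8 without HHD_S 3 to 19 without HHD 2. That for WD_S minus HHD was 16 without WD_S 1, 17 without HHD 7 and 34 without WD_S 3. The within-group standard deviation of the per-library median was 0.52 on the log2 scale. It describes the spread of single pigs and is not the error of a difference between groups.

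**Figure D1:**
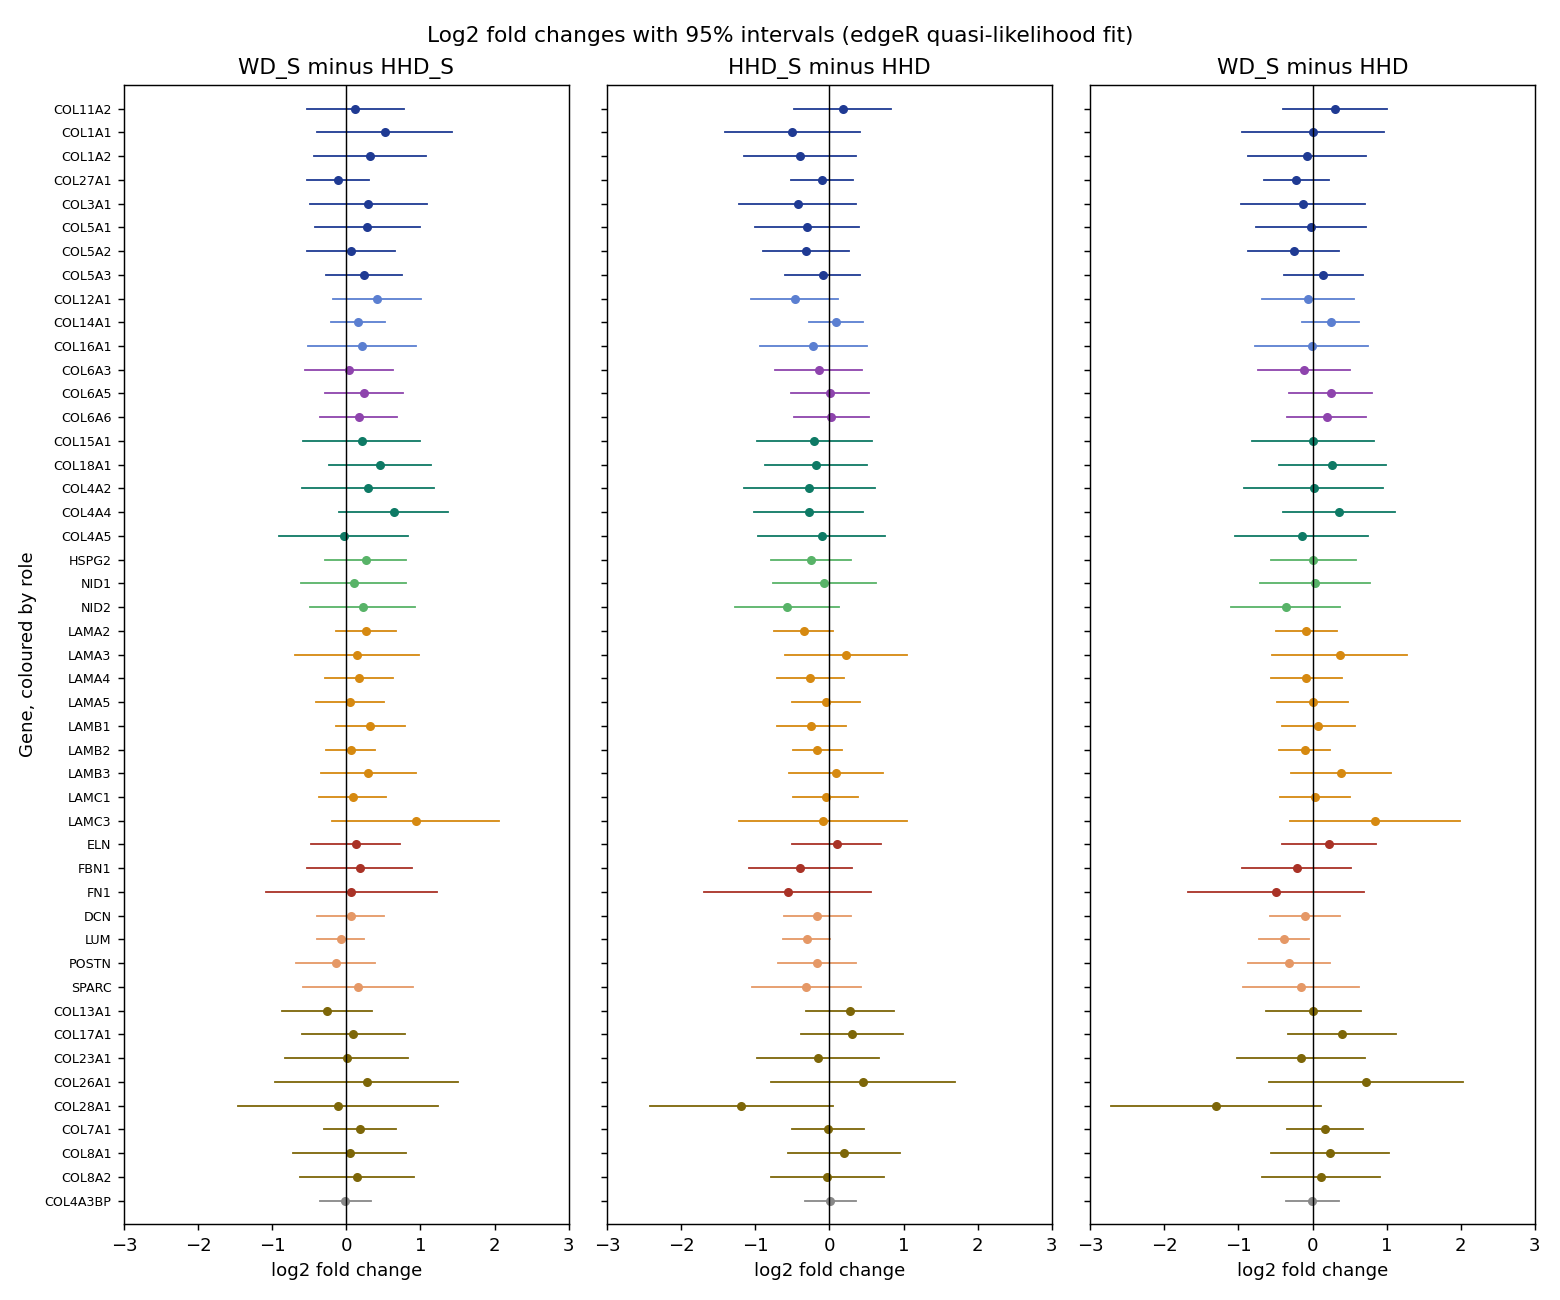
Log2 fold changes (x axis) of 47 of the 48 genes in the 3 contrasts with 95% intervals from the edgeR fit, coloured by role. The interval includes 0 for every gene and contrast shown except LUM in WD_S minus HHD, whose adjusted p was 0.9997.

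Between library pools 4 and 3, 0 of 48 genes passed the adjusted threshold, where 0% of all genes did, and 1 of 48 (LAMC3, −1.02, SE 0.477) had an unadjusted edgeR p under 0.05, where 4.42% of all genes did.

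Fibrillar collagens form the fibres of the interstitial matrix, and 8 were measured. COL1A1 (chromosome 12, 26379087 to 26397180 in Sscrofa11.1), a chain of collagen I, had a level of 54.0 CPM at the lowest, 174 at the median and 413 at the highest in WD_S. In HHD_S these levels were 35.0, 173 and 233 CPM, and in HHD they were 51.0, 260 and 325 CPM. The 3 ranges overlapped, and each group held a pig among the 3 lowest: HHD_S 8, HHD 7 and WD_S 7. COL1A2, the partner chain on chromosome 9, had group medians of 214, 234 and 352 CPM in WD_S, HHD_S and HHD, with the lowest pig at 80.6 CPM (HHD_S 8) and the highest at 511 CPM (WD_S 1). COL3A1, the chain of collagen III, ranged from 319 to 1298 CPM in WD_S, from 215 to 1014 in HHD_S and from 197 to 1422 in HHD, with medians of 723, 702 and 964 CPM.

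These fibrillar genes did not pass the test in any contrast. COL1A1 differed by a log2 fold change of 0.51 between WD_S and HHD_S (95% interval −0.40 to 1.43), by −0.50 between HHD_S and HHD (−1.42 to 0.41) and by 0.01 between WD_S and HHD (−0.95 to 0.97). Without WD_S 1 the first of these was 0.26, and without HHD 4 the second was −0.29. The intervals of the first contrasts did not exclude a 2-fold change. The median log2 fold change of the 8 fibrillar genes was 0.26 for WD_S minus HHD_S, where 7 were positive, and −0.31 for HHD_S minus HHD, where 7 were negative. These 2 contrasts use the same HHD_S libraries, so their opposite signs are not separate observations. COL27A1 was the negative exception in the former at −0.12, and COL11A2 was the positive exception in the latter at 0.18.

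**Figure D2:**
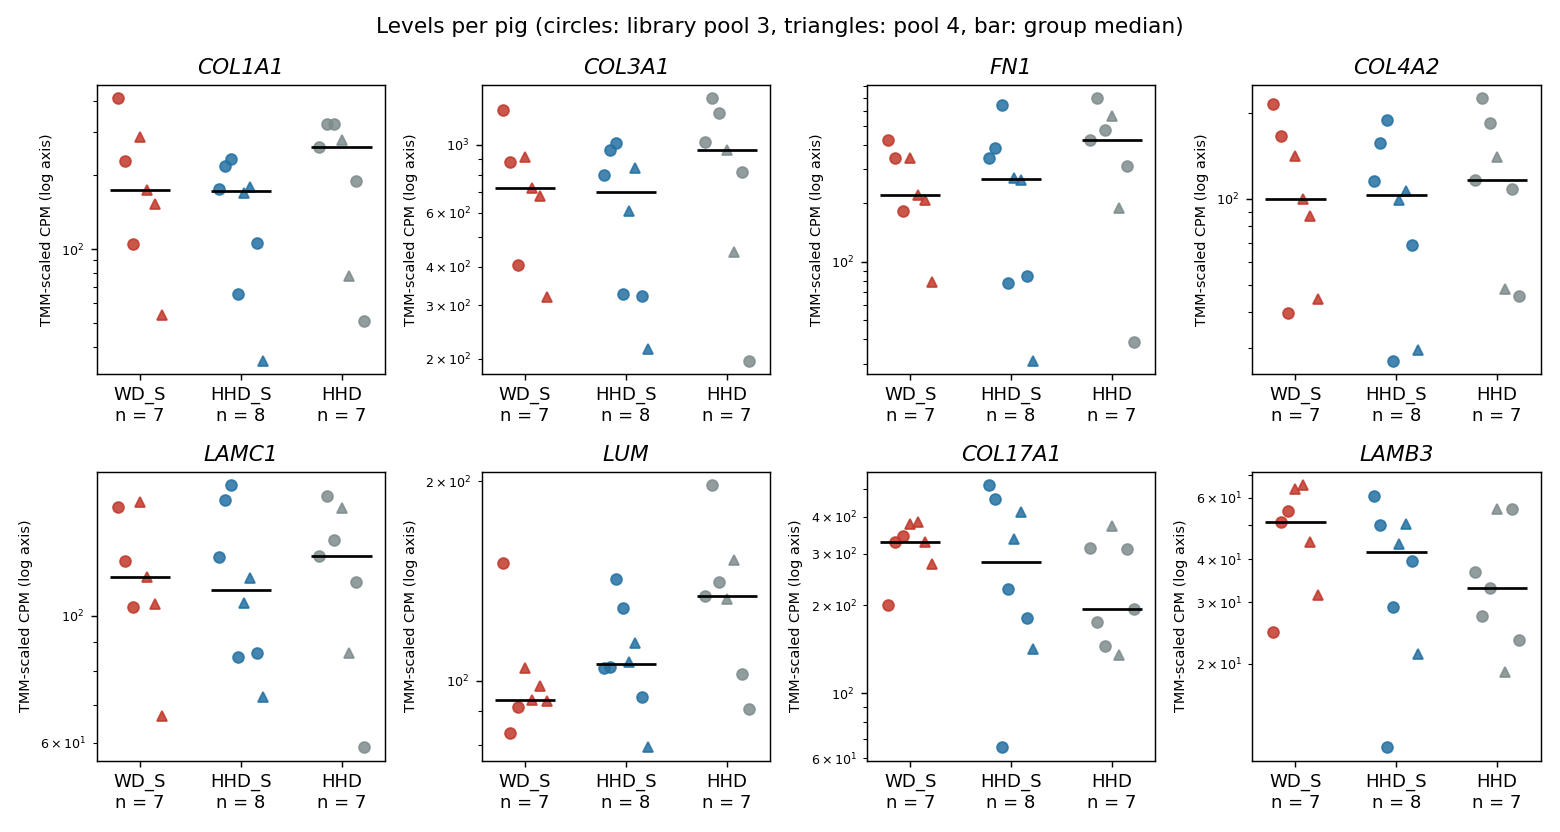
TMM-scaled CPM (log axis) of 8 genes in each pig, by group; circles are library pool 3, triangles are pool 4 and bars are group medians. COL1A1 runs from 35.0 CPM in HHD_S 8 to 413 CPM in WD_S 1, and the groups overlap for all 8 genes.

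Collagens that bind the surface of fibrils were represented by COL12A1, COL14A1 and COL16A1. COL14A1, a collagen of dense connective tissue, was among the steadier genes, at 75.4 to 143 CPM in WD_S, 54.7 to 128 in HHD_S and 55.2 to 121 in HHD. Its log2 fold change was 0.24 for WD_S minus HHD (SE 0.184). COL12A1 had medians of 46.2, 35.1 and 46.4 CPM in WD_S, HHD_S and HHD, and its log2 fold changes of 0.41 (SE 0.287) for WD_S minus HHD_S and −0.47 (SE 0.282) for HHD_S minus HHD both missed the threshold. Collagen VI makes beaded filaments around cells. Its COL6A3 chain had medians of 100.5, 116 and 119 CPM in the same order, and COL6A5 and COL6A6, which lie beside each other on chromosome 13, had medians of 50.0 to 68.6 CPM and 12.1 to 13.2 CPM.

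The network-forming collagen IV and the heparan sulfate carrying collagens XV and XVIII make up the basement membrane collagens, and 5 were measured. COL4A2 (chromosome 11, 76996885 to 77161617), part of the collagen IV network of nearly all basement membranes, had a level of 39.9 CPM at the lowest, 99.9 at the median and 214 at the highest in WD_S. The corresponding levels were 27.1, 103 and 188 CPM in HHD_S and 45.6, 116 and 225 CPM in HHD. The medians lay closer together than the pigs of any group did. COL4A4, a chain of a second collagen IV network with a restricted tissue distribution, was scarce, at 1.26 to 6.39 CPM in WD_S, 0.522 to 4.74 in HHD_S and 0.840 to 3.71 in HHD. Of the 48 genes it had the smallest p in WD_S minus HHD_S, with a log2 fold change of 0.64 (SE 0.353, edgeR adjusted p = 0.999). COL18A1, whose cleaved end is endostatin, differed by 0.45 in that contrast (95% interval −0.24 to 1.14). All 5 basement membrane collagens were negative for HHD_S minus HHD, from −0.28 to −0.10, and each 95% interval included 0.

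Nidogens and perlecan link the laminin and collagen IV sheets. HSPG2, which encodes perlecan, had medians of 125, 103 and 118 CPM in WD_S, HHD_S and HHD, with the lowest pig at 51.7 CPM and the highest at 187 CPM. NID1 had medians of 64.7, 61.6 and 70.6 CPM. NID2 had medians of 12.4, 12.9 and 23.0 CPM, and its log2 fold change for HHD_S minus HHD was −0.58 (SE 0.337, 95% interval −1.28 to 0.12). The HHD range of NID2, 6.18 to 31.7 CPM, contained every HHD_S pig.

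Laminins are heterotrimers of an alpha, a beta and a gamma chain, and 10 chains were measured. LAMB1 and LAMC1, the beta and gamma chains of many laminins, had medians of 158 and 117 CPM in WD_S, 140 and 111 in HHD_S, and 164 and 127 in HHD. LAMB1 differed by 0.32 for WD_S minus HHD_S (SE 0.227). LAMA2, the alpha chain best known from muscle, had medians of 3.81, 3.20 and 4.66 CPM, and differed by 0.26 for WD_S minus HHD_S (SE 0.194) and by −0.35 for HHD_S minus HHD (SE 0.191). LAMA4, an alpha chain of vessels and muscle, had medians of 50.1, 41.0 and 49.1 CPM in WD_S, HHD_S and HHD. LAMA5, the alpha chain of mature epithelial and vascular basement membranes, had group medians of 26.2, 26.2 and 25.5 CPM, and its log2 fold changes were 0.04, −0.04 and 0.00 in the 3 contrasts, with the interval of WD_S minus HHD_S reaching from −0.42 to 0.51. LAMB2, its frequent partner, was the steadiest laminin, with a residual standard deviation of 0.32 on the log2 scale. LAMC3 was near the read minimum, and its log2 fold change of 0.93 for WD_S minus HHD_S (SE 0.542) rested on levels of 0.199 to 2.18 CPM in WD_S against 0.0507 to 1.65 CPM in HHD_S.

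LAMA3 and LAMB3 encode chains of the hemidesmosomal laminin. LAMA3 had a level of 20.6 CPM at the lowest, 74.2 at the median and 103 at the highest in WD_S, 17.4, 63.6 and 101 CPM in HHD_S, and 22.1, 43.1 and 142 CPM in HHD. Its low pigs were HHD_S 3, WD_S 1, HHD 5 and HHD 2, at 17.4 to 22.8 CPM, and its highest was HHD 6. LAMB3 ran from 24.7 to 65.4, 11.5 to 60.7 and 18.9 to 55.8 CPM in WD_S, HHD_S and HHD. The ranges of both genes overlapped between groups, and neither passed the test: for WD_S minus HHD the log2 fold changes were 0.37 for LAMA3 (SE 0.441) and 0.39 for LAMB3 (SE 0.325).

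Fibronectin, the product of FN1, links cells to collagen, and FBN1 and ELN encode fibrillin and elastin of elastic fibres. FN1 (chromosome 15, 117658158 to 117737145) had a level of 79.2 CPM at the lowest, 222 at the median and 422 at the highest in WD_S, 31.0, 267 and 643 CPM in HHD_S, and 38.6, 423 and 697 CPM in HHD. Its highest level was 22.5 times its lowest. The log2 fold change of −0.56 for HHD_S minus HHD had an interval of −1.69 to 0.57. FBN1 had medians of 31.3, 31.1 and 39.3 CPM and ELN had medians of 6.60, 6.91 and 5.19 CPM.

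LUM and DCN encode lumican and decorin, small proteoglycans that bind collagen fibrils, and SPARC and POSTN encode matricellular proteins. LUM (chromosome 5, 91748871 to 91756381) had a level of 83.5 CPM at the lowest, 93.7 at the median and 150.3 at the highest in WD_S, 79.4, 106 and 142 CPM in HHD_S, and 90.6, 134 and 197 CPM in HHD. WD_S 1 stood above the other WD_S pigs, whose highest level was 104.5 CPM, and HHD 6 and HHD 7, at 102 and 90.6 CPM, stood below the other HHD pigs, which began at 133 CPM. The ranges overlapped. LUM was the only one of the 48 genes with an unadjusted p under 0.05 in WD_S minus HHD, with a log2 fold change of −0.39 (SE 0.161). Adjusted over all genes tested by the Benjamini-Hochberg method, the edgeR p was 0.9997, and it did not pass. LUM also had the smallest p in HHD_S minus HHD, at −0.31 (SE 0.153, edgeR adjusted p = 0.999). DCN, its neighbour on the chromosome, differed by −0.11 for WD_S minus HHD (95% interval −0.58 to 0.37). SPARC had medians of 203, 235 and 279 CPM, and POSTN had medians of 301, 352 and 412 CPM, in WD_S, HHD_S and HHD.

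The remaining collagens are anchoring, transmembrane or little studied. COL17A1 (chromosome 14, 114959404 to 115007734), the transmembrane collagen of hemidesmosomes, had a level of 200 CPM at the lowest, 328 at the median and 383 at the highest in WD_S, 65.4, 282 and 515 CPM in HHD_S, and 136, 194 and 373 CPM in HHD. The HHD_S range enclosed the other 2 groups. Its log2 fold change for WD_S minus HHD was 0.40 (95% interval −0.33 to 1.13). COL7A1, which forms the anchoring fibrils, had medians of 48.7, 45.5 and 43.7 CPM. COL28A1 had the most negative fold change of all 48, −1.30 for WD_S minus HHD (SE 0.682) and −1.19 for HHD_S minus HHD (SE 0.593), but it was high in HHD 7 at 11.02 CPM, HHD 1 at 4.82 CPM and HHD_S 7 at 4.27 CPM, and at most 1.67 CPM in the other pigs.

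Genes that build, cross-link, degrade and bind this matrix were taken from 6 lists, and no gene of any list passed the adjusted edgeR threshold in any contrast. Of each list, genes among the 2 with the smallest p per contrast are given with their log2 fold changes.

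Among 24 collagen synthesis enzymes and chaperones, 22 were negative for HHD_S minus HHD, against 47.4% of all genes tested, with a median of −0.14. In WD_S minus HHD_S, 18 were positive, against 47.1% of all genes, and in WD_S minus HHD 11 were positive and 13 negative. These genes are measured in the same pigs and no test is attached to the counts. In HHD_S minus HHD, the prolyl hydroxylase subunit P4HA2 was at −0.44 (SE 0.244) and the collagen chaperone SERPINH1 at −0.48 (SE 0.278). In WD_S minus HHD, P4HA2 was at −0.54 (SE 0.261), with an unadjusted p under 0.05, and the procollagen protease BMP1 was at −0.22 (SE 0.115). In WD_S minus HHD_S, the lysyl hydroxylase PLOD1 was at 0.41 (SE 0.233) and P3H1 at 0.17 (SE 0.120). Of 7 cross-linking enzymes, 0 reached an unadjusted p under 0.05. The lysyl oxidase LOX was at 0.23 for WD_S minus HHD_S and −0.25 for HHD_S minus HHD, its relatives LOXL4 and LOXL2 were at 0.25 and −0.31 in the same order, and LOXL4 and LOXL3 were at 0.12 and −0.09 for WD_S minus HHD.

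Of 17 matrix proteases and inhibitors, 1 in WD_S minus HHD_S, 0 in HHD_S minus HHD and 2 in WD_S minus HHD had an unadjusted p under 0.05, where 2.92%, 1.81% and 3.41% of all genes tested did. These were the cysteine protease CTSB, at 0.28 (SE 0.125) and 0.35 (SE 0.132), and the metalloprotease inhibitor TIMP4, at 0.64 (SE 0.246) in the latter. MMP15 was at 0.23 in WD_S minus HHD_S, and TIMP4 and MMP3 were at 0.41 and −0.28 in HHD_S minus HHD. Of 20 matrix receptors, 0 did so. The collagen receptor DDR1 was at 0.25 (SE 0.152) and 0.33 (SE 0.162) in WD_S minus HHD_S and WD_S minus HHD, and ITGB4, the integrin beta chain of hemidesmosomes, was at 0.29 (SE 0.185) and 0.38 (SE 0.195). The integrin chains ITGA9 and ITGA1 were at −0.29 and −0.15 in HHD_S minus HHD.

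Of 17 genes of the TGF-beta pathway, a main inducer of collagen genes, the pathway inhibitor SMAD7 had an unadjusted p under 0.05 in HHD_S minus HHD, where 1.81% of all genes did, at 0.34 (SE 0.152). LTBP4 was at 0.40 in WD_S minus HHD_S, the ligand gene TGFB2 was at −0.31 in HHD_S minus HHD and −0.47 in WD_S minus HHD, and SMAD7 was at 0.29 in the last. Among 32 other matrix genes, 2 had an unadjusted p under 0.05 in WD_S minus HHD, where 3.41% of all genes did, and 0 in each other contrast. They were AGRN, which encodes the basement membrane proteoglycan agrin, at 0.46 (SE 0.146), and the netrin gene NTN4, at 0.47 (SE 0.178). The edgeR adjusted p was 0.9997 for AGRN. NTN4 and MATN2 were at 0.34 and 0.44 in WD_S minus HHD_S, and AGRN and HMCN1 at 0.26 and −0.30 in HHD_S minus HHD.

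Most of the 48 genes varied more from pig to pig than the typical gene tested did. After removal of group and pool means, the standard deviation of log2 CPM over pigs had a median of 0.68 over the 48 genes and of 0.30 over all genes tested. It was at least 0.5 in 35 of 48 (72.9%), against 17.6% of all genes. The highest library was at least 4-fold the lowest in 29 of 48 (60.4%), against 17.9%, and the median ratio of highest to lowest was 5.10 against 2.22. When all genes tested were limited to those averaging 1 or more in log2 CPM, as 45 of the 48 did, their median standard deviation was 0.27. The largest spread was that of COL26A1, at 1.5, which ran from 0.218 CPM in HHD_S 7 to 18.0 CPM in HHD_S 1 within a single group. FN1 followed at 1.30, COL28A1 at 1.12 and COL1A1 at 0.99. The smallest spreads were those of LUM at 0.31, LAMB2 at 0.32 and COL4A3BP at 0.34.

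The same pigs were low or high for most of the genes. Averaged over the 48 genes after each was centred on its own mean, HHD 7 lay at −0.85 on the log2 scale, HHD_S 8 at −0.76, HHD_S 7 at −0.64, WD_S 7 at −0.61 and HHD_S 4 at −0.59. WD_S 1 lay highest at 0.59, followed by HHD 2 at 0.55, HHD 3 at 0.47 and HHD_S 3 at 0.46. Low and high pigs thus occurred in every group. Of the 5 low pigs, 4 belong to those numbered after the widest gap, and the remaining pig after that gap, HHD 6, lay at 0.11. The groups hold 1, 2 and 2 of these 5 libraries in WD_S, HHD and HHD_S.

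**Figure D3:**
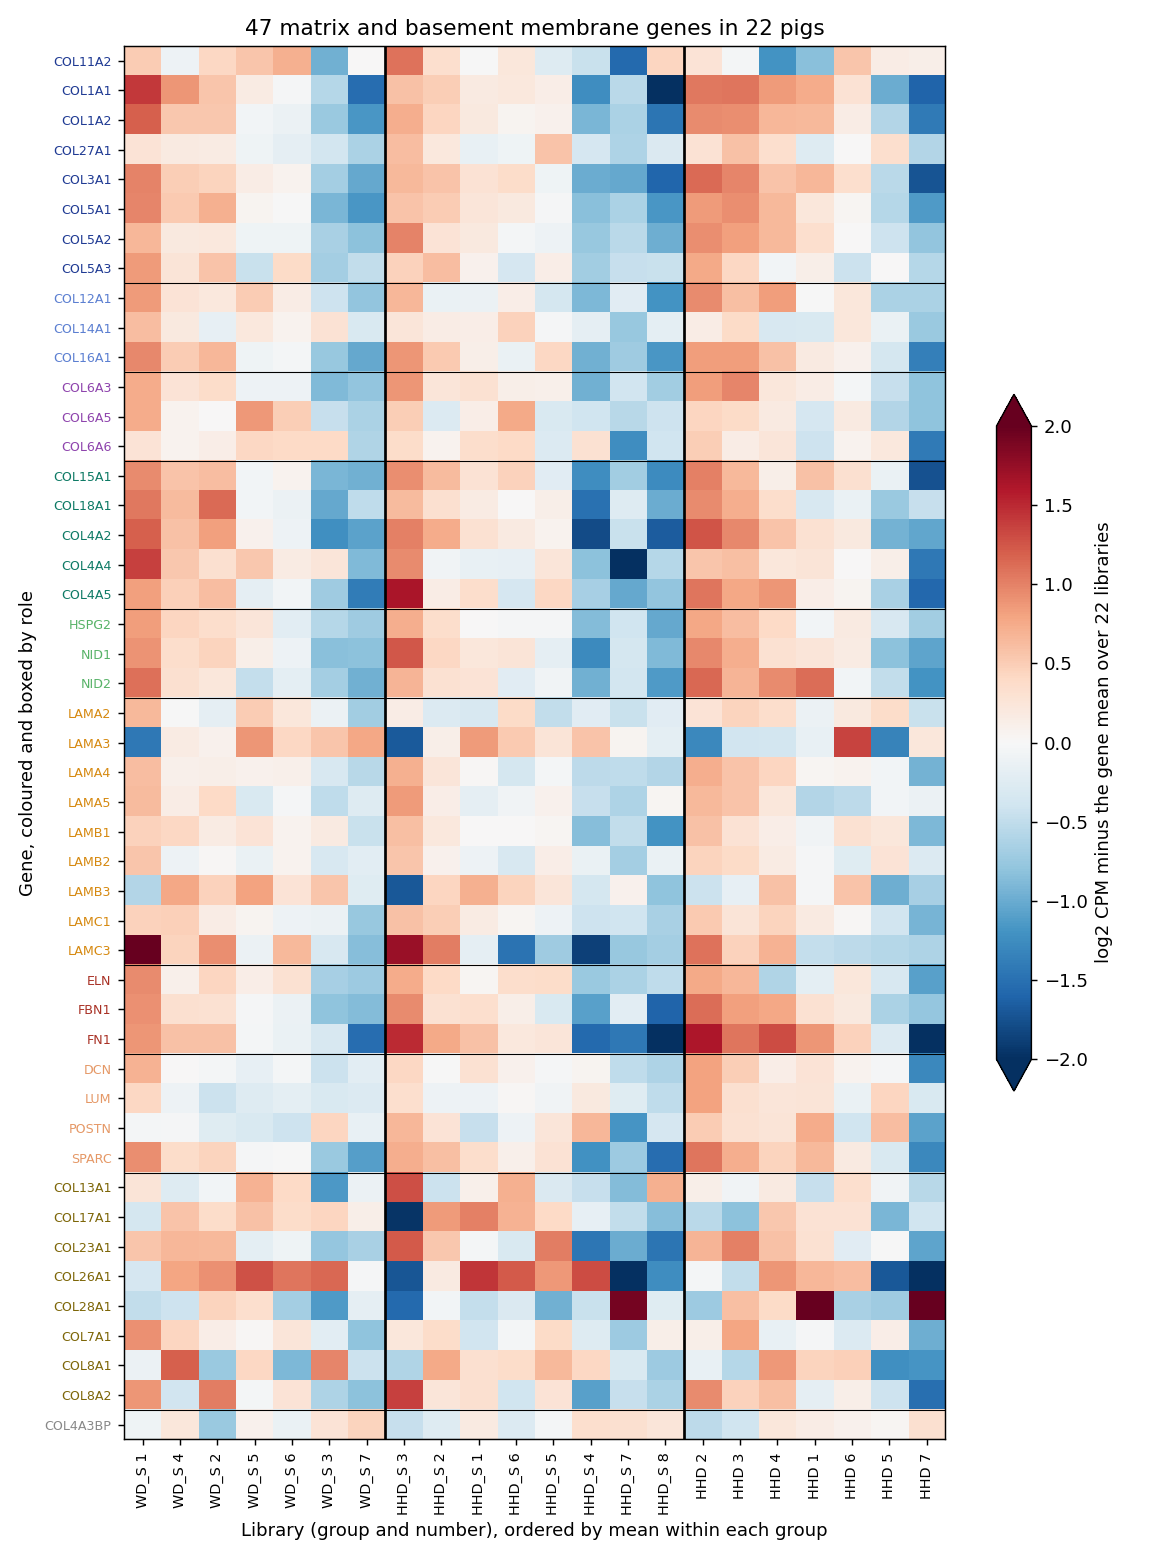
Log2 CPM of 47 of the 48 genes (rows, by role) in 22 libraries (columns, by group and then by their mean over the genes), each gene centred on its mean; the colour scale stops at −2 and 2. WD_S 7, HHD_S 8 and HHD 7 are blue for most rows, and LAMA3, COL17A1, COL26A1 and COL28A1 depart from the common pattern.

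A principal component analysis of the 48 genes put 61.4% of their variance on a first component, 15.2% on a second and 8.36% on the third. Over the 1128 pairs of the 48 genes, Pearson's r of log2 CPM with group and pool means removed had a median of 0.61 and ranged from −0.81 to 0.98. The correlations that follow use those values over 22 pigs, with permutation p-values from 100000 draws, for which 1e-05 is the smallest p they can give.

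Most gene pairs whose products assemble together varied together. COL1A1 and COL1A2, which lie on different chromosomes and form collagen I, had r = 0.98 and rho = 0.96 (permutation p = 1e-05), and r = 0.98 without the 2 pigs farthest from the median of COL1A1. COL1A1 and COL3A1 had r = 0.96 and rho = 0.90 (permutation p = 1e-05, r = 0.95 without the 2 farthest). COL4A5 and COL4A6, neighbours on chromosome X, had r = 0.96 and rho = 0.95, with r = 0.96 without the 2 farthest. COL4A3 and COL4A4 on chromosome 15 had r = 0.91 and rho = 0.73, but their annotated spans overlap by 663 bases and the counting was not stated to use strand, so shared reads cannot be told apart from co-variation. LAMB1 and LAMC1 had r = 0.86 and rho = 0.75 (r = 0.80 without the 2 farthest). For these 5 pairs the permutation p of r was 1e-05, also after adjustment over the 7 pairs examined together, of which 6 are reported.

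A laminin chain was more loosely related to collagen I. COL1A1 and LAMA5 had r = 0.51 and rho = 0.59 (permutation p = 0.0156 and 0.00437, adjusted 0.0182 and 0.0051), with r = 0.62 without the 2 farthest. Within pools 3 and 4, r was 0.61 and 0.46 for COL1A1 with LAMA5, and between 0.72 and 1.00 for the other 5 pairs. For COL1A1 with log2 total reads, r was 0.25 (permutation p = 0.261), and 0.14 and 0.45 within pools 3 and 4. With the log2 TMM scaling factor it was 0.06 (permutation p = 0.797), and 0.33 and −0.73 within the pools. For COL17A1 with log2 total reads, r was 0.39 (permutation p = 0.0749). The part of depth and scaling in the co-variation was not tested.

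**Figure D4:**
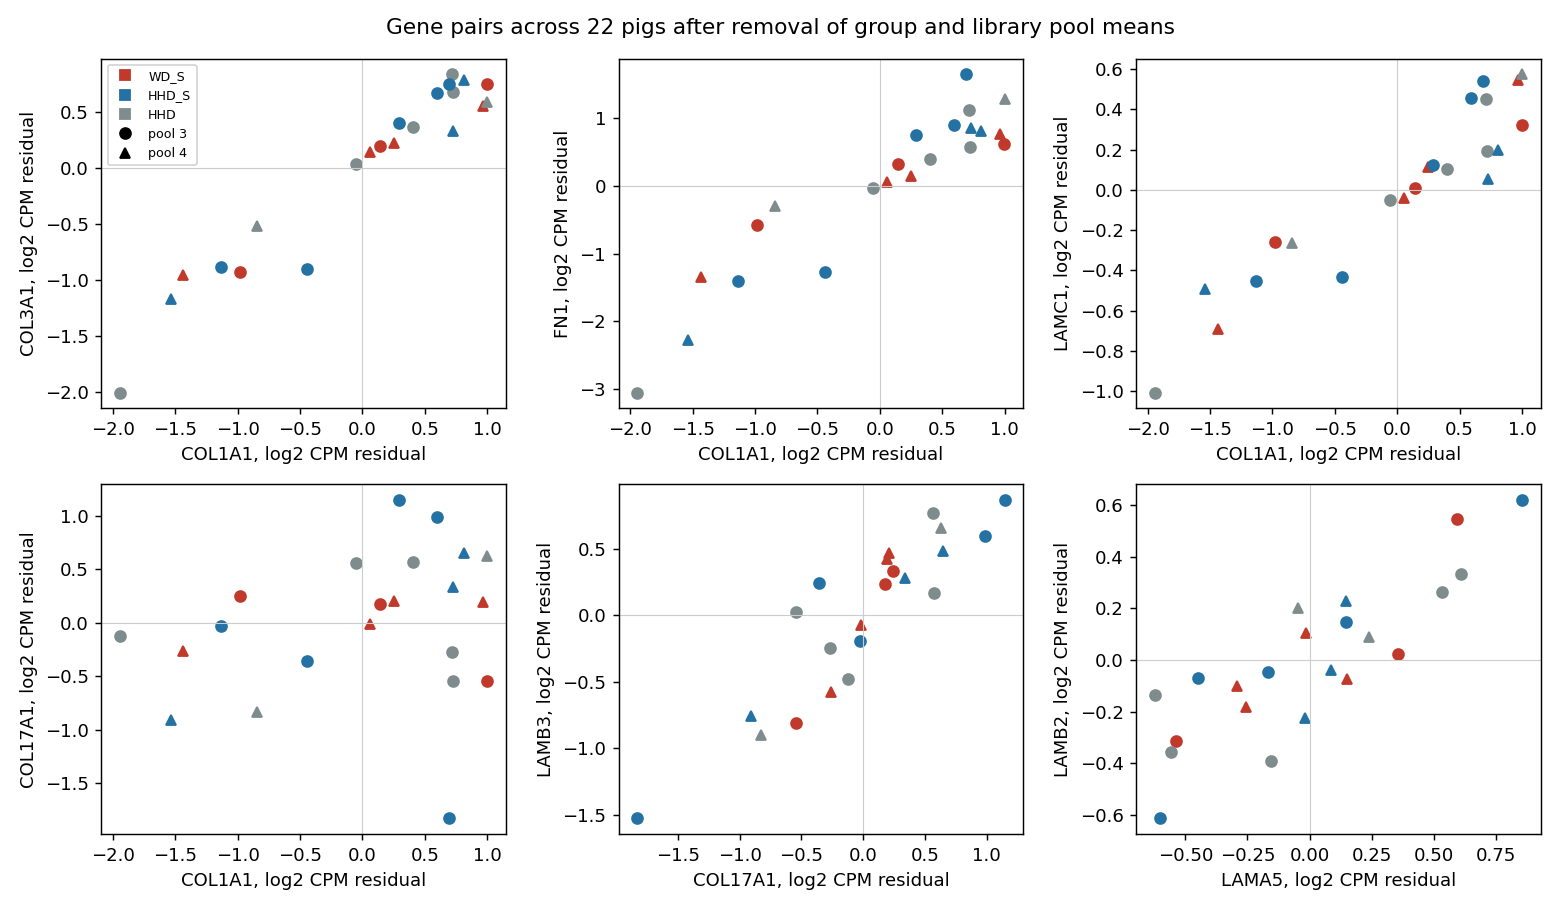
Log2 CPM residuals (group and pool means removed) of 6 gene pairs in 22 pigs, by group colour and pool symbol. COL3A1, FN1 and LAMC1 follow COL1A1 (r = 0.96, 0.93 and 0.94), COL17A1 does not over all pigs (r = 0.23), and COL17A1 with LAMB3 (r = 0.91) and LAMA5 with LAMB2 (r = 0.85) form tight pairs.

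With COL1A1 as the reference, 37 of the other 47 genes had a permutation p under 0.05 after adjustment over 231 relations. The 231 relations are with the listed genes only, and the share over all genes tested was not computed. The 37 include COL4A3BP, whose r was negative. Of the 47 genes, 21 (44.7%) had r of at least 0.8, against 2.59% of all genes tested. These high correlations crossed the roles. They included COL5A1 (0.96), SPARC (0.96), the fibril-associated COL16A1 (0.95), FBN1 (0.94), the laminin chain LAMC1 (0.94), the basement membrane collagen COL4A2 (0.94), FN1 (0.93), NID2 (0.93) and HSPG2 (0.93). All 3 nidogen and perlecan genes, 4 of 5 basement membrane collagens and 4 of the 7 other fibrillar collagens reached 0.8, but 3 of 10 laminins and 1 of 8 anchoring, transmembrane and other collagens did. Without the 5 pigs after the widest gap in the numbering, 18 of 47 genes (38.3%) reached 0.8, against 3.4% of all genes.

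The other 10 genes had an adjusted permutation p of 0.05 or more with COL1A1. They included COL8A1, COL26A1, COL13A1, LAMB3, POSTN (r = 0.32), COL17A1 (0.23), COL11A2 (0.11), LAMA3 (−0.29) and COL28A1 (−0.31). COL4A3BP, the ceramide transfer gene, went the other way from the matrix genes, with r = −0.57 (rho = −0.53, permutation p = 0.00561, adjusted 0.00913 over 231 relations).

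**Figure D5:**
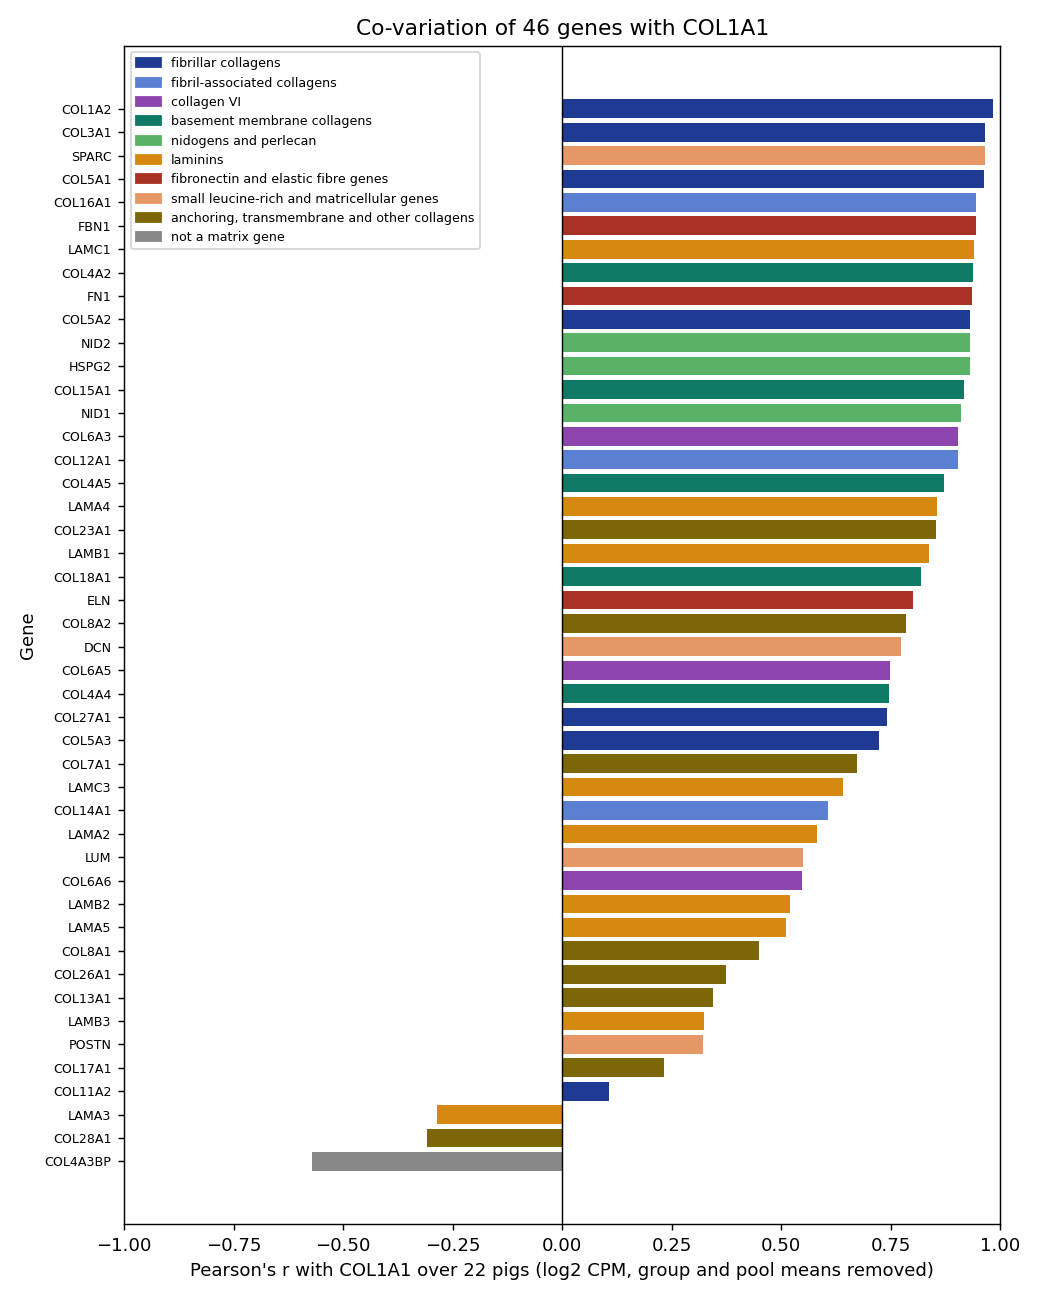
Pearson's r of other genes with COL1A1 over 22 pigs (bars, coloured by role). Values run from 0.98 for COL1A2 to −0.57 for COL4A3BP, with epithelial LAMA3, COL17A1 and LAMB3 among the lowest.

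Markers of other cell types were compared with COL1A1 in the same way. Of 11 smooth muscle markers, 9 had r of at least 0.8 with it (median 0.91), as did 6 of 10 fibroblast markers (median 0.82), 5 of 9 endothelial markers (median 0.81) and 2 of 6 pericyte markers (median 0.71). Of 11 enterocyte markers, 0 did (median 0.11), and of 9 leukocyte markers, 0 did (median −0.38). For these lists the marker with the highest mean CPM is named, without division by transcript length. It was MYH11 for smooth muscle (220 CPM), C7 for fibroblasts (146) and VWF for endothelium (62.2). For pericytes it was RGS5 (220), for enterocytes APOA1 (17774) and for leukocytes JCHAIN (1634). The fibroblast markers summed to 208 to 555 CPM in WD_S, 180 to 509 in HHD_S and 225 to 495 in HHD, and the endothelial markers to 150 to 425, 109 to 507 and 181 to 511 CPM, so these sums overlapped between groups as the smooth muscle sums did. The low pig HHD 7 had the lowest smooth muscle sum of its group, 441 CPM, and HHD_S 8 that of its own, 408 CPM. The part of these cell types in the co-variation was not tested. Enzymes and partners of the matrix were less uniform. With COL1A1, r was at least 0.8 for 1 of 24 collagen synthesis enzymes and chaperones (median 0.45), the procollagen protease ADAMTS2 at 0.95. It was so for 3 of 7 cross-linking enzymes (median 0.71), among which LOXL2 was at 0.97 and LOXL4 at 0.07, and for 5 of 17 TGF-beta pathway genes (median 0.67), among which LTBP4 was at 0.96 and the receptor gene TGFBR1 at −0.76. Of 17 matrix proteases and inhibitors, 6 reached it (median 0.55), and CTSS was at −0.76.

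A second set of genes varied with COL17A1. With COL17A1 as the reference, LAMB3 had r = 0.91 and rho = 0.88 (permutation p = 1e-05, adjusted 0.00077 over 231 relations), and r = 0.84 without the 2 farthest pigs. LAMA3 (0.69), COL26A1 (0.65) and COL8A1 (0.65) were the other 3 of the 48 genes with an adjusted permutation p under 0.05. Of 11 enterocyte markers, 7 passed at that threshold, with APOA1 at 0.83 and the microvillus gene VIL1 at 0.81. Of 20 matrix receptors 1 passed (median r −0.01), the integrin ITGA3, at 0.69. The share of all genes tested that would pass was not computed. For r of at least 0.8 with COL17A1, the share was 18.2% of the enterocyte markers and 1.26% of all genes tested. In HHD_S 3, COL17A1 was at 65.4 CPM and LAMB3 at 11.5 CPM, the lowest of all pigs, and the enterocyte sum was also lowest there, at 23102 CPM, while the smooth muscle sum was highest, at 1590 CPM. The part of the enterocyte share in these levels was not tested.

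The relation of COL17A1 and LAMB3 to COL1A1 had different values in the 2 library pools. Within pool 3 (n = 13), r with COL1A1 was −0.13 for COL17A1 and −0.09 for LAMB3. Within pool 4 (n = 9) it was 0.89 and 0.93. The difference between the pools was not tested. COL17A1 with LAMB3 was high in each, at 0.89 and 0.95.

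A further pattern separated laminin alpha chains. LAMA5 and LAMB2, which assemble together, had r = 0.85 and rho = 0.82 (permutation p = 1e-05), although r was 0.89 in pool 3 and 0.46 in pool 4. LAMA3 and LAMA5 went in opposite directions, with r = −0.73 and rho = −0.74 (permutation p = 7e-05 and 0.00016), and r = −0.59 without WD_S 1 and HHD_S 3, the 2 farthest. LAMA3 and LAMB3 had r = 0.71 and rho = 0.53 (permutation p = 0.00025 and 0.0122, r = 0.52 without the same 2 pigs). These 3 pairs were among 13 relations chosen after their values were seen. Each p stayed under 0.05 after adjustment over the 13. That adjustment does not account for the choice, so these p-values only describe the pairs. The same family holds the relations of COL17A1 with LAMB3 as a pair and with total reads. It also holds those of COL1A1 with FN1, POSTN, total reads and the TMM factor, and of the neighbours that follow.

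Pairs of neighbouring genes on a chromosome were compared in the same way. COL3A1 and COL5A2, 16177 bases apart on chromosome 15, had r = 0.94 and rho = 0.93. DCN and LUM, 34945 bases apart on chromosome 5, had r = 0.82 and rho = 0.81, with r = 0.75 without the 2 farthest pigs. COL6A5 and COL6A6, 43574 bases apart on chromosome 13, had r = 0.66 and rho = 0.58. For POSTN with COL1A1, r fell from 0.32 to 0.02 without HHD 7 and HHD_S 8, so that value rested on those pigs.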

How the data were processed

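Jejunal mucosa of 22 pigs was sequenced for RNA. Per the labels' protocols, only RNA of quality indicator over 8 entered TruSeq v2 library preparation, and 150-base single reads were made on an Illumina NextSeq and handled in the CLC workbench with Sus scrofa 11.1. The deposited values are raw counts of unique exon reads, per the file headers. How reads were mapped is not given in the sources used here. The kit does not mark strand, so overlapping genes can share reads. Groups follow the sample labels, although the series text ties the abbreviation of WD_S to the Western pattern without drug.

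Counts were analysed with edgeR 4.0.16 (R 4.3.3): filterByExpr with a minimum count of 10, TMM scaling, and a robust quasi-likelihood fit of all 22 libraries with group and library pool, on 13626 genes (18 residual degrees of freedom, overall coefficient of variation 25.9%). P-values were adjusted by Benjamini-Hochberg over all genes tested. Log2 CPM used a prior count of 2. All 48 genes matched RefSeq (Sscrofa11.1) by symbol for coordinates. Alternatives were DESeq2 1.42.0, limma 3.58.1 with quality weights, RLE and total-count scaling, other filters, no pool term, no robust estimation, pools alone, only the groups compared, and leaving out each pig. The fits were tested on simulated counts.

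The 48 genes, the lists and the pairs were chosen with earlier results of these data known. Genes named are representatives of each role, the 5 smallest p per contrast, the extremes of spread, 2 genes per pathway list and contrast, and the top marker of each list; COL28A1, COL4A3BP and the further correlated genes were chosen after their values were seen. All 231 library pairs differed by more than counting error (smallest reduced chi-square 25.2). Each library is 1 pig, so p-values measure the spread between pigs. Whether tissue was taken or RNA prepared in several rounds is not in the labels. Results for some genes of these lists are not reported here.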

Additional observations from a re-analysis of the deposited data

Results flagged for a closer look

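Of 144 sets of 7 or 8 levels (48 genes in 3 groups), 9 had a highest or lowest pig whose gap to the nearest of the others exceeded Dixon's 95% critical value, where chance gives about 5% of sets. HHD 7 was lowest of its group for COL15A1 at 12.9 CPM (the others 39.6 to 87.7), for COL4A4 at 0.840 CPM (2.42 to 3.71) and for DCN at 49.5 CPM (120.0 to 213). WD_S 1 was highest of its group for DCN at 197 CPM (89.96 to 122) and for LUM at 150.3 CPM (83.5 to 105), and lowest for LAMA3 at 20.6 CPM (59.1 to 103). LAMA3 was also lowest in HHD_S 3 at 17.4 CPM (48.8 to 101). WD_S 7 was lowest for COL6A6 at 7.16 CPM (11.5 to 14.5), and HHD_S 7 was highest for COL28A1 at 4.27 CPM (0.299 to 1.02).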

How the results depend on the processing

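The count of called genes was 0 in each contrast under all 13 other settings, DESeq2, limma and a changed set of 52 genes included, and in all 22 edgeR fits without a single pig. The median log2 fold change stayed between 0.08 and 0.22 for WD_S minus HHD_S over those settings and between 0.05 and 0.27 without single pigs. It lay between −0.28 and −0.14, and between −0.31 and −0.05, for HHD_S minus HHD. For WD_S minus HHD it changed sign, from −0.09 to 0.05 and from −0.15 to 0.12. Counts at an unadjusted p under 0.05 ran to 2, 5 and 2 with limma and to 1, 3 and 4 in pool 4 alone, in the order of the contrasts given. Without the 5 pigs after the widest gap in the numbering, chosen after seeing the data, they were 1, 4 and 2. The shares of all genes tested at that level under these settings were not computed, so these counts have no background to compare with. LAMC3 in WD_S minus HHD turned from 0.84 to −0.0069 in pool 4 alone; the cause was not tested. The 6 pairs reported, COL1A1 with LAMA5 included, kept their side of 0.05 in the settings run. Without the 5 pigs, r was −0.38 for COL1A1 with POSTN. No paired analysis was possible because the replicate numbers were given in accession order and pair no pigs. Depth limits LAMC3, COL28A1 and COL4A4, and intervals cover only the pigs sampled.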
